A study of Mus musculus with 24 samples.

Results

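Hepatocyte identity is held by a small network of DNA-binding proteins, and the mRNA of 9 of them (Hnf4a, Foxa1, Foxa2, Foxa3, Cebpa, Cebpb, Onecut1, Nr5a2 and Prox1) was followed in the livers of mice that lack lipin 1 in adipocytes. The 9 genes were taken by symbol from the 41388 genes of the count tables, each symbol matched 1 identifier, and all 9 passed the filter on low counts that left 13052 genes for testing. Poly-A RNA of whole liver was sequenced from 20 single male mice on a C57BL/6J background, aged 8 weeks when the diets began and killed after a 4 h fast. The comparisons ask whether loss of lipin 1 in fat, or dietary fat, changed the liver mRNA of these factors. A pool of the RNA of the 5 mice was also sequenced for each group and stayed out of the tests.

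The 4 groups held 5 mice each. WT mice on the low-fat diet (LFD, 10% of energy from fat) and WT mice on the high-fat diet (HFD, 60%) carried the floxed Lpin1 alleles without Cre. Adn-Lpin1-/- mice on either diet carried the same floxed alleles together with Cre driven by the adiponectin promoter, so the deletion was directed to adipocytes. The labels give 16 weeks of feeding, and the study's methods give a shorter period, so the duration is uncertain. The WT mice were littermate controls, and which of the mice shared a litter or cage is not given, so p-values measure the spread between these mice only.

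HNF4A, a nuclear receptor, and HNF6, the product of Onecut1, bind the promoters of many genes that hepatocytes switch on as they mature. FOXA proteins (Foxa1, Foxa2 and Foxa3) open compacted chromatin ahead of other factors, C/EBPα and C/EBPβ (Cebpa and Cebpb) drive metabolic and acute-phase genes, LRH-1 (Nr5a2) acts on bile acid and cholesterol genes, and PROX1 works with HNF4A and LRH-1 as a corepressor. These proteins bind each other's promoters, and their mRNA is read here as an amount of transcript, not of protein or activity.

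Libraries held 36260187 to 81072794 counts in genes per mouse, with a median of 40777580 in WT mice on the LFD against 52955319 to 62306028 in the other 3 groups. On the LFD every WT library (36260187 to 45999456 counts) was smaller than every Adn-Lpin1-/- library (51095146 to 61435897), and on the HFD the ranges overlapped. The 9 genes took 336 to 65684 counts per mouse. The 8 hepatocyte markers were abundant, with a summed level between 88573 and 136816 CPM, the count of a gene relative to the library size. Liver Lpin1 cannot check an adipocyte deletion, and its level spanned 142 to 673 CPM in WT and 322 to 1195 CPM in Adn-Lpin1-/- mice on the LFD, and 137 to 556 CPM and 120 to 580 CPM on the HFD. All levels here are CPM on library sizes scaled by the trimmed mean of M-values (TMM).

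Levels were compared between genes only per kilobase of gene length. Hnf4a and Cebpa led, with medians over the 20 mice of 135 and 133 CPM per kilobase, and did not differ beyond their spread, since Hnf4a was the higher of the pair in 12 of 20 mice. Foxa3 came next at a median of 28.0 CPM per kilobase, below Cebpa in all 20 mice. Prox1 had a median of 15.5 CPM per kilobase, Foxa2 13.5, Cebpb 10.1 and Nr5a2 10.1. The ranges of these neighbours overlapped, and Cebpb exceeded Nr5a2 in 10 of 20 mice. Foxa1 (6.81 CPM per kilobase) and Onecut1 (5.22 CPM per kilobase) closed the order with overlapping ranges, and Foxa1 was the higher in 10 of 20 mice. Among the Foxa paralogs the median per kilobase was therefore ordered Foxa3, Foxa2, Foxa1.

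**Figure D1:**
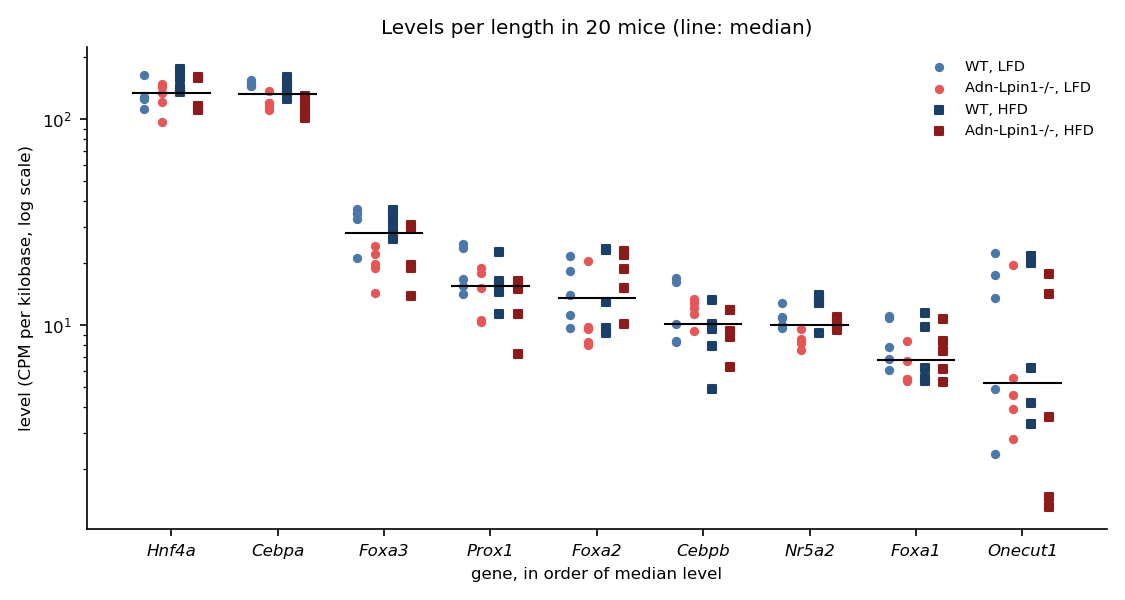
Levels per gene length (y axis, CPM per kilobase, log scale) of the 9 genes (x axis, in order of median) in 20 mice, 1 point a mouse, colored by group, with a line at the median. Hnf4a and Cebpa sit near 135 and 133 CPM per kilobase, above every other gene in every mouse, and Onecut1 spreads the widest, from 1.31 to 22.4 CPM per kilobase.

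The spread between mice of 1 group differed widely among the 9 genes. Cebpa and Nr5a2 varied little, with a within-group SD of 0.11 and 0.17 on the log2 scale against a median of 0.19 over all genes tested. Hnf4a (0.22) and Foxa3 (0.34) were intermediate. Foxa1, Prox1, Cebpb and Foxa2 had SDs of 0.40, 0.41, 0.43 and 0.55. Onecut1 had an SD of 1.39, larger than that of 99.7% of all genes tested, and its level spanned 17.1-fold over the 20 mice. The differences that a test can call are therefore much smaller for Cebpa and Nr5a2 than for Onecut1.

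The sequences before the start sites are shown for the 3 genes whose transcripts were lower in Adn-Lpin1-/- livers, and for Foxa2, which varied with Foxa1 and Onecut1 from mouse to mouse. RefSeq start sites (GRCm38.p6) matched all 9 symbols, with 2 starts for Hnf4a, Nr5a2 and Prox1, 3 for Foxa2 and 1 for each of the others. Each window holds the 250 bases before the start, 5′ to 3′ along the gene, and none of the 4 windows overlaps an exon in the GENCODE annotation. Capitals mark matches, on either strand, to 6 motifs. The forkhead motif TGTTTAC is held by 3.16% of all 32817 such windows. The C/EBP motif TTGCNNAA is held by 9.57%, the LRH-1 motif CAAGGTCA by 1.33% and the HNF4A motif CAAAGTCCA by 0.384% of them. The HNF6 core ATTGAT is held by 6.73%. The TATA box, searched as TATAAA, is held by 12.4%. No 2 matches in these windows overlap.
Cebpa, chr7:35119043-35119292, plus strand: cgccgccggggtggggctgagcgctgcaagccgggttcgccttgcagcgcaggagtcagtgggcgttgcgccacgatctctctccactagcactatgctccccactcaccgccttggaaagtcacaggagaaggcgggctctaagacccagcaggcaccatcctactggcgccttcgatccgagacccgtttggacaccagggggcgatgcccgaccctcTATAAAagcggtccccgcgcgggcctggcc
Foxa3, chr7:19023540-19023789, minus strand: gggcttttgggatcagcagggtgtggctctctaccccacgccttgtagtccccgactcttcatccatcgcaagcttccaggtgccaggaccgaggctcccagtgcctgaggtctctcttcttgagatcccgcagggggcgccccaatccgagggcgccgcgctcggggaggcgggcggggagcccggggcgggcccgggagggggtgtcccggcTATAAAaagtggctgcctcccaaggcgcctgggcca
Nr5a2, first start, chr1:136960449-136960698, minus strand: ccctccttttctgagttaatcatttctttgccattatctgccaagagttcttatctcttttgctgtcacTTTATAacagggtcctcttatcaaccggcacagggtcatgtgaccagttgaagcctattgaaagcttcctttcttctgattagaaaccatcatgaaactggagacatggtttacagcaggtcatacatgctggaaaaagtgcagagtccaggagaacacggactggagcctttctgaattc
Foxa2, first start, chr2:148046970-148047219, minus strand: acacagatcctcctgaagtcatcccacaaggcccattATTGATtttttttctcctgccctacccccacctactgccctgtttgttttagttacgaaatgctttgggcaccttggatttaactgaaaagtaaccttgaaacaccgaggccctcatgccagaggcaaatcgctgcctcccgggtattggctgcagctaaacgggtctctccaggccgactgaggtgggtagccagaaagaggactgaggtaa

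TATAAA lies 30 to 25 bases before the start of Cebpa and 36 to 31 bases before that of Foxa3. Its reverse complement lies 181 to 176 bases before the first start of Nr5a2, and the HNF6 core lies 213 to 208 bases before that of Foxa2. A further HNF6 core match, 59 to 54 bases before the first start of Hnf4a, and a forkhead match, 141 to 135 bases before that of Foxa1, fall in windows that overlap annotated exons of these genes, so only 30 bases around each are given.
Hnf4a, chr2:163506787-163506816, plus strand: tgattagaagaATCAATaagataaccgggc
Foxa1, chr12:57546234-57546263, minus strand: tatactgctttGTAAACAaagtgagggcca
The second start of Nr5a2 has a C/EBP match 243 to 236 bases before it. The matches are descriptions of the letters only.

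Among the 9 genes, Cebpa and Nr5a2 were called lower in Adn-Lpin1-/- livers on both diets, and Foxa3 on the LFD but not on the HFD. A call depends on spread as well as size. On the LFD the uncalled Onecut1 (log2 -0.74), Foxa1 (-0.44), Foxa2 (-0.42) and Prox1 (-0.38) had larger fitted changes than Cebpa (-0.31), with a wider spread within groups. On the LFD, 3 of 9 fell (Cebpa, Nr5a2 and Foxa3) and none rose, at an adjusted p of 0.05 or less by the quasi-likelihood test of edgeR with Benjamini-Hochberg adjustment over all 13052 genes. Of all genes tested, 8.11% fell and 6.27% rose in that comparison. On the HFD, 2 of 9 fell (Cebpa and Nr5a2) and none rose, against 8.78% and 9.87% of all genes. Averaged over both diets, Cebpa, Nr5a2 and Foxa3 were lower, against 15.8% of all genes lower and 17.1% higher. Since 4289 of all 13052 genes passed in that average, in either direction, a count of 3 of 9 is close to the background and is no result about these genes. The fitted log2 fold change was below 0 for 9 of 9 genes on the LFD (median -0.38, against 0.01 over all genes tested) and for 7 of 9 on the HFD (median -0.30, against 0.00). Of all genes, 48.8% and 49.7% lay below 0. The 9 signs are not independent, since Foxa1, Foxa2 and Onecut1 varied together from mouse to mouse.

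Cebpa (ENSMUSG00000034957, chr7:35119293-35121926, GRCm38) encodes C/EBPα, a bZIP factor of mature hepatocytes. In WT mice on the LFD it stood at 397, 409, 382, 382 and 392 CPM in mice 1 to 5, and in Adn-Lpin1-/- mice at 362, 291, 316, 317 and 301 CPM. All 5 Adn-Lpin1-/- mice lay below all 5 WT mice, which held for 6.21% of all genes tested. Cebpa fell by 19.1%, a log2 fold change of -0.31 ± 0.08 (SE, adjusted p = 0.011, edgeR). On the HFD the WT mice had 390, 424, 359, 331 and 365 CPM and the Adn-Lpin1-/- mice 267, 288, 342, 297 and 316 CPM. The groups overlapped through Adn-Lpin1-/- mouse 3, which exceeded WT mouse 4, and the other 4 Adn-Lpin1-/- mice lay below all WT mice. The log2 fold change was again -0.31 ± 0.08 (SE, adjusted p = 0.0096, edgeR), and the difference between the diets was -0.0017 with a 95% interval of -0.23 to 0.22. The call held in all 28 alternative fits on each diet, of which 20 left out 1 mouse, also of the other diet. None of them used raw library totals. TMM factors spanned 0.93 to 0.97 in WT and 1.00 to 1.05 in Adn-Lpin1-/- mice on the LFD. On the HFD they spanned 0.94 to 0.99 and 0.99 to 1.09. A higher factor lowers CPM, and the part of scaling in the lower Cebpa was not tested.

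Nr5a2 (ENSMUSG00000026398, chr1:136843584-136960427) encodes LRH-1, a nuclear receptor that activates genes of bile acid synthesis and cholesterol transport. In WT mice on the LFD it stood at 37.2, 41.7, 42.0, 38.3 and 49.3 CPM, and in Adn-Lpin1-/- mice at 29.0, 36.8, 33.0, 31.3 and 32.1 CPM. The groups did not overlap, and the log2 fold change was -0.36 ± 0.10 (SE, adjusted p = 0.020, edgeR). On the HFD the WT mice had 49.3, 53.4, 53.7, 49.1 and 35.0 CPM and the Adn-Lpin1-/- mice 38.9, 36.4, 37.6, 40.8 and 41.9 CPM. WT mouse 5 lay below every Adn-Lpin1-/- mouse, whereas the other 4 WT mice lay above all of them. The log2 fold change was -0.30 ± 0.10 (SE, adjusted p = 0.041, edgeR). Without WT mouse 5 it was -0.41 ± 0.08 (adjusted p = 0.0024), and without any 1 of WT mice 1 to 4 or Adn-Lpin1-/- mice 1 to 3 it was not called (log2 -0.30 to -0.26, adjusted p between 0.062 and 0.10). The HFD call was also lost with no filter on low counts (adjusted p = 0.058), in a fit of the groups compared alone (0.073) and with the trend on GC content removed (0.053). On the LFD it was not called without WT mouse 5 (-0.30, adjusted p = 0.052).

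Foxa3 (ENSMUSG00000040891, chr7:19013282-19023538) encodes the FOXA paralog with the highest level per length in these livers. In WT mice on the LFD it stood at 71.9, 67.0, 70.8, 74.5 and 43.0 CPM, and in Adn-Lpin1-/- mice at 49.2, 38.8, 45.4, 40.4 and 29.4 CPM. WT mouse 5 lay within the range of the Adn-Lpin1-/- mice, and the other 4 WT mice lay above it. Foxa3 fell by 37.9%, a log2 fold change of -0.69 ± 0.19 (SE, adjusted p = 0.021, edgeR). The call was lost without WT mouse 4 (-0.64, adjusted p = 0.051) and without Adn-Lpin1-/- mouse 5 (-0.59, adjusted p = 0.061). On the HFD the WT mice had 71.2, 60.5, 67.0, 53.5 and 73.8 CPM and the Adn-Lpin1-/- mice 28.4, 38.5, 40.2, 60.8 and 62.6 CPM. Adn-Lpin1-/- mice 1, 2 and 3 lay below all WT mice and mice 4 and 5 within them, and the log2 fold change of -0.50 ± 0.19 (SE, adjusted p = 0.070, edgeR) was not called. It was called without Adn-Lpin1-/- mouse 4 or mouse 5 (-0.63 and -0.64, adjusted p = 0.028 for both) and without WT mouse 5 of the LFD (-0.51, adjusted p = 0.045), and also by DESeq2 (adjusted p = 0.039) and by voom with quality weights (0.033). Averaged over the diets it was -0.59 ± 0.13 (SE, adjusted p = 0.0024, edgeR).

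**Figure D2:**
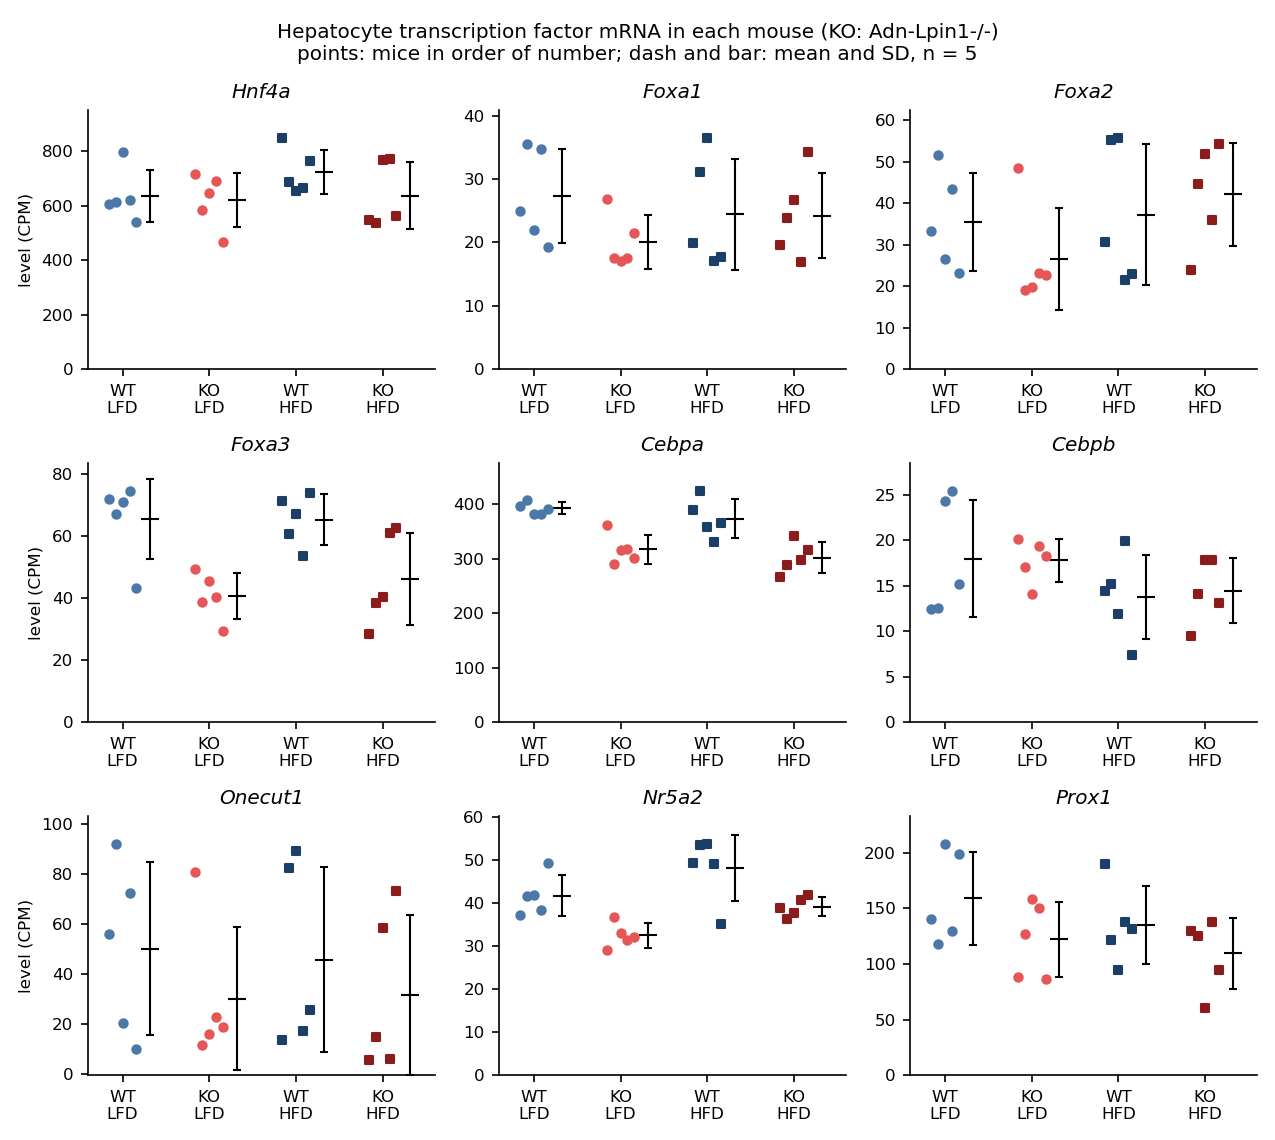
Level (y axis, CPM) of each of the 9 genes in each of the 20 mice (points, in order of mouse number) in the 4 groups (x axis), with the mean and SD (n = 5). Cebpa and Nr5a2 in Adn-Lpin1-/- mice on the LFD lie wholly below WT, Foxa3 overlaps through WT mouse 5, and Onecut1 has mice at 25.6 CPM or less and mice at 55.9 CPM or more in every group.

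No gene of the 9 had all 10 Adn-Lpin1-/- mice below all 10 WT mice, which was the case for 1.52% of all genes tested, and none had the groups apart on the HFD, where 5.6% of all genes had them apart with Adn-Lpin1-/- lower. In these bulk samples, fewer cells of a type and less RNA per cell cannot be told apart. Marker genes of other cells moved with the genotype, and their counts stand against 6.27% and 9.87% of all genes that rose, and 8.11% and 8.78% that fell, on the LFD and the HFD. Of 7 macrophage markers 0 rose under the LFD and 5 under the HFD. Of 7 stellate cell markers 4 and 3 rose, and of 6 endothelial markers 3 and 4. Of 8 hepatocyte markers 1 and 5 fell.

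The summed level of hepatocyte markers ranged over 119667 to 127886 CPM in WT and 88573 to 117491 CPM in Adn-Lpin1-/- mice on the LFD, and over 110312 to 136816 CPM and 91289 to 122720 CPM on the HFD. Stellate cell markers summed to 85.8 to 167 CPM and 177 to 401 CPM on the LFD, and to 149 to 221 CPM and 182 to 415 CPM on the HFD. The ends of the range were thus lower in Adn-Lpin1-/- mice for the hepatocyte list and higher for the stellate cell list. Most of the hepatocyte sum is Alb, at 55514 to 87678 CPM over all mice. Ttr (log2 0.04 and -0.01), Pck1 (0.41 and 0.54) and Ass1 (-0.27 and -0.48) were called on neither diet. The stellate cell markers called were Col1a1, Col3a1 and Pdgfrb on both diets and Dcn on the LFD, and Lrat, Des and Reln were called on neither. Macrophage markers summed to 84.5 to 155 CPM and 111 to 207 CPM on the LFD, and to 103 to 128 CPM and 137 to 303 CPM on the HFD. Endothelial markers summed to 70.6 to 123 CPM and 100 to 189 CPM on the LFD, and to 87.9 to 130 CPM and 136 to 165 CPM on the HFD. The ends of both of these ranges were also higher in Adn-Lpin1-/- mice on both diets. No marker of these 4 lists was at 0 in all mice. Cholangiocyte markers, with 0 of 5 tested called on either diet, summed to 22.6 to 50.5 CPM in WT and 34.0 to 82.6 CPM in Adn-Lpin1-/- mice on the LFD. On the HFD they summed to 14.3 to 39.2 CPM and 26.2 to 57.8 CPM, so both ends were higher in Adn-Lpin1-/- mice on each diet. Most of this sum is Spp1, at 8.12 to 68.4 CPM over all mice, and no other marker of the list exceeded 10.3 CPM. Adipocyte markers, 1 of 4 of which passed the low-count filter, summed to 0.261 to 4.63 CPM in WT and 1.76 to 36.0 CPM in Adn-Lpin1-/- mice on the LFD, and to 1.42 to 16.5 CPM and 3.96 to 184 CPM on the HFD. The gene tested was Cfd, the complement factor adipsin, called higher on both diets (log2 3.76 ± 1.18 and 3.81 ± 1.02, adjusted p = 0.038 and 0.015, edgeR). Cfd alone reached 35.9 and 183 CPM in Adn-Lpin1-/- mice on the LFD and the HFD, so the higher sums there are those of 1 gene. Adipoq, Plin1 and Lep had medians of 0.0481, 0 and 0 CPM over the 20 mice and maxima of 4.32, 0.112 and 0.0728 CPM. These sums therefore do not measure adipocyte content. The part of cell makeup in the lower Cebpa, Nr5a2 and Foxa3 was not tested.

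The other 6 factors were not called for genotype by edgeR. Hnf4a, the nuclear receptor at the center of the network, spanned 541 to 796 CPM in WT and 467 to 716 CPM in Adn-Lpin1-/- mice on the LFD, and 655 to 849 CPM and 537 to 773 CPM on the HFD. Its log2 fold change under the LFD was -0.03, with a 95% interval of -0.31 to 0.24, and on the HFD -0.18, with an interval of -0.46 to 0.10. Both intervals hold a change of the size fitted for Cebpa. Cebpb, the C/EBP paralog raised by acute-phase signals, had 12.4 to 25.5 CPM in WT and 14.2 to 20.2 CPM in Adn-Lpin1-/- mice on the LFD, a log2 difference of -0.01 (95% interval -0.51 to 0.49). On the HFD it had 7.36 to 19.999 CPM and 9.44 to 17.9 CPM.

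Foxa1 spanned 19.3 to 35.5 CPM in WT and 17.1 to 26.9 CPM in Adn-Lpin1-/- mice on the LFD, and 17.2 to 36.5 CPM and 16.9 to 34.2 CPM on the HFD. The groups overlapped on each diet, as they did for Foxa2 (23.1 to 51.5 CPM and 19.1 to 48.4 CPM, then 21.6 to 55.7 CPM and 23.97 to 54.4 CPM). Foxa1 had a log2 fold change of -0.44 on the LFD (95% interval -0.93 to 0.04) and -0.01 on the HFD (-0.49 to 0.47). Foxa2 had -0.42 on the LFD (95% interval -1.08 to 0.24) and 0.18 on the HFD (-0.48 to 0.83). With voom, quality weights and the pools, Foxa1 was called on the LFD (-0.54, adjusted p = 0.015) and averaged over diets (-0.30, adjusted p = 0.037), in a fit that counts the RNA of the same mice a second time. The edgeR values of both paralogs lay lower on the LFD and near 0 or above on the HFD, and the difference between the diets passed no test for either (adjusted p = 0.83 for both, edgeR). Prox1, the homeobox corepressor, spanned 118 to 208 CPM in WT and 86.9 to 158 CPM in Adn-Lpin1-/- mice on the LFD, and 94.3 to 190.4 CPM and 60.3 to 138 CPM on the HFD. The fitted difference in log2 was -0.38 on the LFD (95% interval -0.87 to 0.10) and -0.30 on the HFD (-0.79 to 0.18). Prox1 is also made by lymphatic endothelium, whose markers Flt4 and Lyve1, the only 2 of that list tested, were higher in Adn-Lpin1-/- mice on both diets. Lyve1 is also in the endothelial list. The other lymphatic markers Pdpn and Mmrn1 had medians of 0.208 and 0.156 CPM over the 20 mice, and Ccl21a was at 0 in every mouse. The summed level of the lymphatic list is thus almost that of Flt4 and Lyve1 and does not single out lymphatic endothelium. It was 13.3 to 26.7 CPM in WT and 23.3 to 53.2 CPM in Adn-Lpin1-/- mice on the LFD, and 17.7 to 27.4 CPM and 30.9 to 46.9 CPM on the HFD. The part of lymphatic endothelium in the Prox1 values was not tested.

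**Figure D3:**
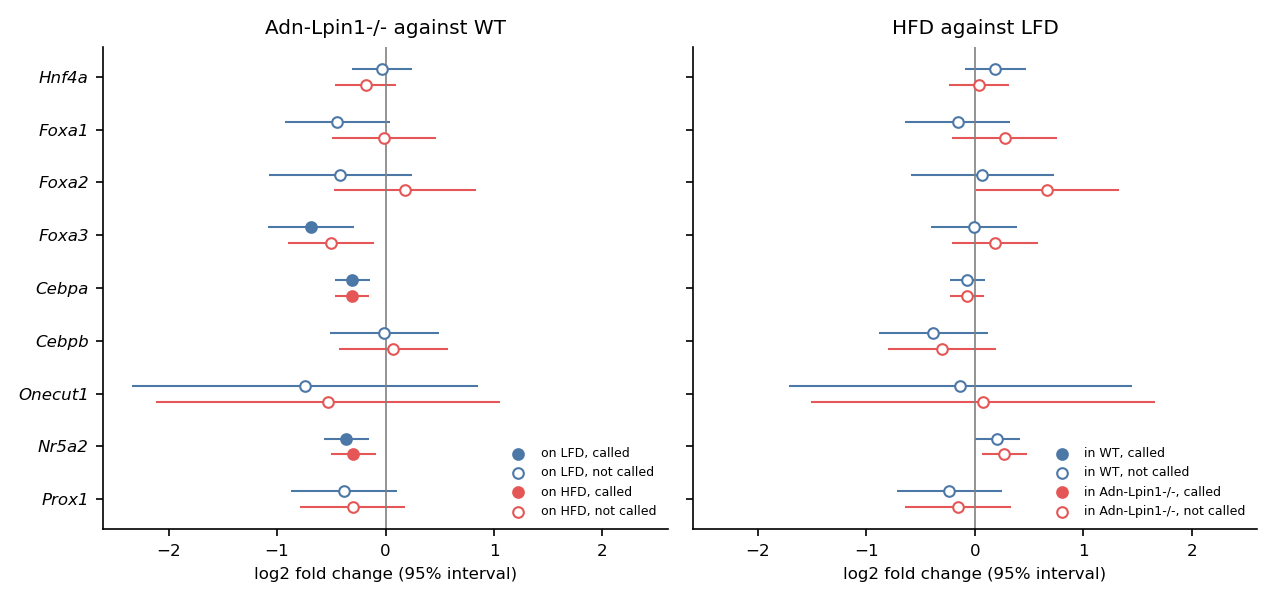
Log2 fold change (x axis) of the 9 genes (y axis) for Adn-Lpin1-/- against WT on both diets (left) and HFD against LFD in both genotypes (right), with 95% intervals, and filled points for an adjusted p of 0.05 or less. Cebpa, Nr5a2 and Foxa3 on the LFD and Cebpa and Nr5a2 on the HFD are filled on the left, no point is filled on the right, and the intervals of Onecut1 reach beyond -2 on the left.

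By diet, 1 of the 9 genes, Nr5a2, passed the test, when both genotypes were averaged. In WT mice 0 of 9 genes passed the test (1.1% of all genes did, and 0 of the 9 had an unadjusted p under 0.05). DESeq2 called 0 of 9 there and voom with quality weights 1, Nr5a2 (log2 0.29, adjusted p = 0.049). In Adn-Lpin1-/- mice 0 of 9 passed (2.46% of all genes did), with an unadjusted p under 0.05 for 2 of 9, and both DESeq2 and voom with quality weights called 0. The 2 with such a p were Foxa2, with a log2 fold change of 0.66 (95% interval 0.01 to 1.32, adjusted p = 0.31, edgeR), and Nr5a2, with 0.27 (0.06 to 0.48, adjusted p = 0.17). In WT mice Nr5a2 had 0.21 (-0.0013 to 0.41), and the average over genotypes was 0.24 ± 0.07 (SE, adjusted p = 0.044, edgeR), an increase of 17.9%, against 3.55% of all genes higher on the HFD. The call was lost with no filter on low counts (adjusted p = 0.062) and in 15 of the 20 fits that left out 1 mouse (log2 0.21 to 0.24, adjusted p from 0.057 to 0.096), and held without WT mouse 5 of either diet, Adn-Lpin1-/- mouse 2 of either diet or Adn-Lpin1-/- mouse 3 on the HFD.

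With that increase, the 4 Nr5a2 group means were 32.4 ± 2.8 CPM in Adn-Lpin1-/- mice on the LFD, 39.1 ± 2.2 CPM in Adn-Lpin1-/- mice on the HFD, 41.7 ± 4.7 CPM in WT mice on the LFD and 48.1 ± 7.6 CPM in WT mice on the HFD (SD, n = 5 each). The 2 middle groups overlapped. Cebpb was lower on the HFD by an average of 0.34 on the log2 scale (95% interval -0.70 to 0.01, adjusted p = 0.24, edgeR) and was not called by edgeR. With voom, quality weights and the pools it was called (log2 -0.48, adjusted p = 0.0063), in a fit that counts the RNA of the same mice a second time. Whether the genotype effect differed between the diets was tested for each gene, and 0 of 9 passed, as did 0% of all genes. At an unadjusted p under 0.05 the counts were 0 of 9 and 938 of all genes, and DESeq2 and voom with quality weights called 0 of 9, with 30 and 0 among all genes.

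Onecut1, the CUT-homeobox factor HNF6, had a within-group SD above each of its fitted group differences. WT mice on the LFD had 55.9, 92.1, 20.2, 72.2 and 9.76 CPM, and Adn-Lpin1-/- mice 80.8, 11.6, 16.0, 22.8 and 18.8 CPM. On the HFD the WT mice had 13.6, 82.5, 89.2, 17.3 and 25.6 CPM and the Adn-Lpin1-/- mice 5.38, 14.7, 58.4, 6.04 and 73.1 CPM. No mouse lay between 25.6 and 55.9 CPM, with 12 mice below and 8 above, and each group had mice on both sides (of those above, 3 were WT and 1 Adn-Lpin1-/- for the LFD, and 2 and 2 for the HFD). The genotype difference was -0.74 with the LFD (95% interval -2.33 to 0.85) and -0.53 with the HFD (-2.11 to 1.05), both on the log2 scale and neither called. These intervals are the widest of the 9 genes.

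Foxa1 and Foxa2 followed Onecut1 from mouse to mouse, and Prox1 ran the opposite way. After each group's mean was subtracted, log2 CPM of Foxa1 and Foxa2 correlated with a Pearson r of 0.91 (Spearman rho 0.89) over the 20 mice. Foxa1 with Onecut1 gave 0.90 (0.89), Foxa2 with Onecut1 0.88 (0.88), and Prox1 with Onecut1 -0.79 (-0.79). Without the 2 mice farthest from the median of the first gene named, r was 0.90, 0.88 and 0.86 for the first 3 pairs, and without the 2 farthest in Onecut1 it was -0.81 for Prox1. The values with Onecut1 rest in large part on the gap in its levels. Within the 12 mice below the gap, r of the measured levels was 0.10 for Foxa1, -0.24 for Foxa2 and -0.01 for Prox1, and within the 8 above it 0.72, 0.64 and 0.15. Foxa1 with Foxa2 gave 0.52 and 0.56 within these sets.

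**Figure D4:**
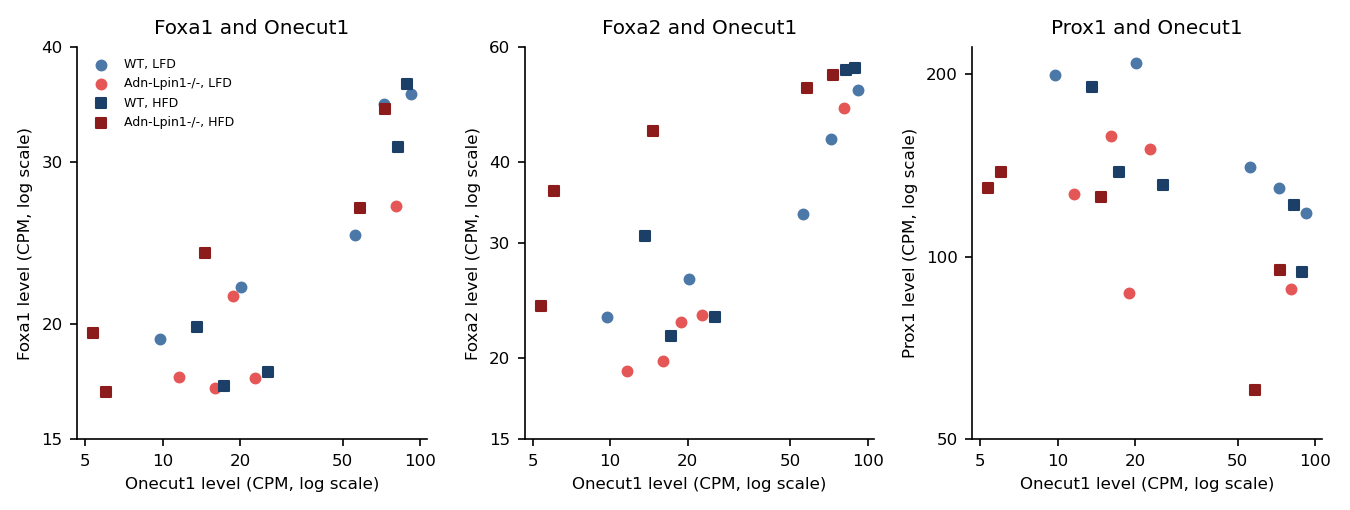
Levels of Foxa1, Foxa2 and Prox1 (y axes, CPM, log scale) against Onecut1 (x axis, CPM, log scale) in 20 mice, 1 point a mouse, colored by group. The 8 mice at 55.9 CPM or more of Onecut1 come from all 4 groups, points rise to the right for Foxa1 and Foxa2 and fall for Prox1, and no mouse lies between 25.6 and 55.9 CPM.

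These correlations are descriptions, since all points share libraries and depth. The log2 total count of a library, with group means subtracted, had an r of 0.54 with Onecut1, 0.41 with Foxa1, 0.33 with Foxa2 and -0.57 with Prox1. With Cebpa it was 0.45, with Foxa3 0.13, with Hnf4a -0.07, with Nr5a2 -0.11 and with Cebpb -0.26. The part of the total count in the pattern was not tested. Among the genes called for genotype, Cebpa had an r of 0.64 with Onecut1 and 0.71 with Foxa2, Foxa3 had 0.42 and 0.42, and Nr5a2 -0.16 and 0.03. Cebpa, Foxa3 and Nr5a2 had r between -0.25 and 0.39 among themselves. Hnf4a had its highest r among the 9 with Foxa3 (0.57), and Cebpb its highest with Hnf4a (0.32).

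Among all 13052 genes the 3 most like each factor were named by the same measure. For Onecut1 they were Gbp11 (r = 0.95), Zfp809 (0.94) and Ikzf4 (0.93), and for Foxa1 they were Gbp11 (0.94), Arid5b (0.92) and Rgs3 (0.91). For Foxa2 they were Phlda1 (0.95), Cish (0.94), a feedback inhibitor of cytokine receptor signaling, and Arid5b (0.92). Gbp11 thus stood among the nearest 3 of both Onecut1 and Foxa1, and Arid5b among those of both Foxa1 and Foxa2. For Prox1 they were Zfp395 (0.89), Dido1 (0.89) and Bcl6 (0.88), a transcriptional repressor. For Foxa3 they were Hmgn5 (0.94), Tmem266 (0.93) and Sra1 (0.92). Foxa3 had 201 genes at r of 0.8 or more, whereas the other 8 factors had 3 to 37.

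For Hnf4a the nearest were Ablim3 (0.89), Shb (0.86) and Gtf2ird2 (0.85). For Cebpa they were Akap17b (0.86), Gmps (0.84), the enzyme that makes GMP, and Nktr (0.81). For Cebpb they were Foxo3 (0.83), a forkhead factor restrained by insulin, Akr1d1 (0.81), an enzyme of bile acid synthesis, and Rab5c (0.80). For Nr5a2 they were Pon3 (0.84), a paraoxonase, Reps2 (0.81) and Nxpe2 (0.81). No factor was among the 3 nearest genes of another.

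Of 33 other liver-enriched factors listed and tested, 4 fell under the LFD, 3 fell under the HFD and none rose, with list medians of -0.17 and -0.06 on the log2 scale. These counts are close to the 8.11% and 8.78% of all genes that fell and are no result about the list. Onecut2, the paralog of Onecut1, fell most among those called, from 111 to 155 CPM in WT to 80.7 to 91.7 CPM in Adn-Lpin1-/- mice on the LFD with no overlap (log2 -0.67 ± 0.13, adjusted p = 0.0018, edgeR). On the HFD it spanned 105 to 170 CPM and 76.4 to 115 CPM (log2 -0.40 ± 0.13, adjusted p = 0.036, not called with the GC trend removed). Dbp, a clock-driven PAR bZIP factor, fell on both diets (log2 -0.37 and -0.35, adjusted p = 0.0061 and 0.0071). Its relative Tef fell on the LFD (log2 -0.29), as did Nfib, a nuclear factor I protein (log2 -0.30), and Creb3l3, which drives lipid and acute-phase genes, fell on the HFD (log2 -0.21). On the HFD against the LFD in Adn-Lpin1-/- mice, Nfib (log2 0.34) and Stat5b (log2 0.31), the mediator of growth hormone signaling, rose.

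Some genes for hepatocyte products fell on both diets. Of 30, 7 fell under the LFD, 14 fell under the HFD and none rose, against 8.11% and 8.78% of all genes lower, with list medians of -0.24 and -0.29 against 0.01 and 0.00 over all genes. On the LFD the largest called changes were in Cyp7a1 (log2 -1.38 ± 0.43, adjusted p = 0.037, edgeR, not called with the GC trend removed), the rate-limiting enzyme of bile acid synthesis, Apob (-0.49 ± 0.10), the structural protein of VLDL, Otc (-0.39 ± 0.09), of the urea cycle, and F2 (-0.31 ± 0.06), prothrombin. On the HFD they were in Cyp7a1 (-1.66 ± 0.43, adjusted p = 0.013), Apoa1 (-0.77 ± 0.16), the main protein of HDL, Cps1 (-0.64 ± 0.19), the first enzyme of the urea cycle, and Apob (-0.58 ± 0.10). Apob spanned 3558 to 5020 CPM in WT and 2522 to 3271 CPM in Adn-Lpin1-/- mice on the LFD, and 4084 to 4961 CPM and 2861 to 3407 CPM on the HFD, with no overlap on either diet. By diet, 0 of 30 passed in WT and 1 in Adn-Lpin1-/- mice, where G6pc, the last enzyme of glucose release, was lower on the HFD (log2 -1.55 ± 0.33, adjusted p = 0.017, edgeR). Hepatocyte markers share Alb, Apoa1, Cps1 and others with this list, so the 2 counts are not independent.

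Known targets of LRH-1 were read beside Nr5a2. Of 7 tested, 1, Cyp7a1, passed the genotype test on either diet, against 8.11% and 8.78% of all genes lower, with list medians of 0.02 (LFD) and 0.01 (HFD). Of 17 cofactors and modifiers of these factors, Ncoa2, a nuclear receptor coactivator, fell on both diets (log2 -0.42 ± 0.07 and -0.37 ± 0.07, adjusted p = 9.2e-04 and 0.0025, edgeR), from 49.5 to 63.6 CPM in WT to 36.7 to 44.0 CPM in Adn-Lpin1-/- mice on the LFD. Ddit3, the C/EBP relative CHOP that blocks other C/EBP proteins, rose on the HFD (log2 0.49 ± 0.11, adjusted p = 0.0069) from 3.99 to 5.31 CPM to 5.20 to 7.81 CPM. The other 15 of the 17 were not called for genotype on either diet by edgeR in the fit as reported. On the HFD, voom with quality weights called 1 lower and 3 higher, DESeq2 1 and 2, and the fit with the GC trend removed 2 and 2. Of all genes, 8.11% fell and 6.27% rose on the LFD, and 8.78% and 9.87% on the HFD, so the reported counts are no result about this list.

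Of 16 fetal liver and biliary genes, 11 passed the low-count filter. Sox4, a progenitor factor, had low levels of 0.46 to 0.61 CPM in WT and 0.66 to 1.78 CPM in Adn-Lpin1-/- mice on the HFD. No WT mouse on either diet exceeded 1 CPM, so Sox4 passed the filter through Adn-Lpin1-/- mice alone, and the filter set the direction of its call on the HFD (adjusted p = 0.023, edgeR). Onecut2 also belongs to this list and is the 1 member that fell on either diet. Prom1, which was not called, also passed the filter through Adn-Lpin1-/- mice alone. Its highest WT level was 0.798 CPM on the LFD and 0.766 CPM on the HFD. The list medians were 0.39 (LFD) and 0.27 (HFD), and the LFD median is the value of Prom1 itself. The filter thus had a part in these medians, and they are no result about the list. The markers of cholangiocytes, 5 of which were tested and all of which are in this list, had medians of 0.75 and 0.34.

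**Figure D5:**
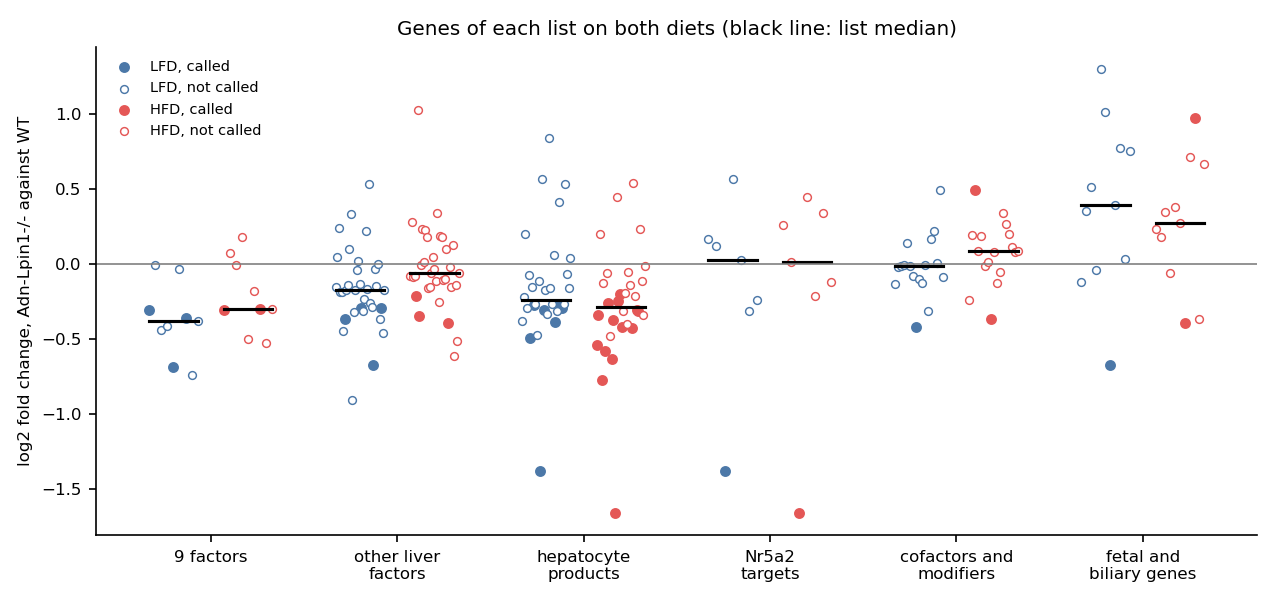
Log2 fold change of Adn-Lpin1-/- against WT (y axis) for each tested gene of the 9 factors and 5 lists (x axis) on the LFD (blue) and HFD (red), filled for an adjusted p of 0.05 or less, with the list median as a black line. Filled points lie below 0 among hepatocyte products on both diets, and Cyp7a1, the lowest point at -1.38 and -1.66, is in both the hepatocyte product and Nr5a2 target lists.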

How the data were processed

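Liver RNA of 20 single mice and 4 pools was sequenced after poly-A selection. Per the labels and the study's methods, the authors aligned reads with STAR 2.5.1a and counted them per gene with featureCounts 1.4.6-p5 (Ensembl release 76, GRCm38), and strand use is not stated in the sources used here. The deposited files hold a raw read count for each gene, with CPM and RPKM values that the authors derived from it and that were not used. From the counts, 355 rRNA genes were left out and genes over 1 CPM in at least 4 of 20 libraries were kept. Group means were fitted with edgeR 4.0.16 (R 4.3.3, TMM scaling, quasi-likelihood test, Benjamini-Hochberg adjustment over 13052 genes, called at 0.05). Log2 CPM used a pseudocount of 0.5. The study's own model was voom with quality weights (limma 3.58.1), which was run as an alternative, as were DESeq2 1.42.0, other scalings, filters, a GC correction, a block for mouse number, and fits without each mouse in turn. Fits were tested on simulated data.

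The 9 genes and the gene lists were chosen with earlier results of these data known, so no count over a list is independent evidence. From each list, genes called in a comparison were named, up to 4 by size of the log2 fold change, and for each factor the 3 genes with the highest r of log2 CPM after subtraction of group means. Prox1, Hnf4a and Cebpb share their span with genes on the opposite strand (Prox1os, 195 to 578 counts per mouse, Hnf4aos, 103 to 510, and the protein-coding Tmem189, 670 to 2568). The study counted unambiguous reads only, and whether reads in these overlaps were lost or assigned was not tested. No pair of the 20 libraries had identical counts. Mouse numbers gave correlations of deviations of -0.41 to 0.275 between same-numbered mice, with 6 of 30 over 0.1, and were not taken to pair the mice.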

Additional observations from a re-analysis of the deposited data

Results flagged for a closer look

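In 4 of the 36 sets of 5 mice (9 genes in 4 groups), 1 mouse lay far from the other 4, with a gap over 0.71 of the whole range. Chance alone flags about 1 in 20 such sets. Adn-Lpin1-/- mouse 1 on the LFD had 48.4 CPM of Foxa2, against 19.1 to 23.2 CPM in the other 4. The same mouse had 80.8 CPM of Onecut1, against 11.6 to 22.8 CPM. Without it the log2 fold change on the LFD was -0.75 for Foxa2 (adjusted p = 0.10, edgeR) and -1.54 for Onecut1 (adjusted p = 0.20), and that of Foxa2 for HFD against LFD in Adn-Lpin1-/- mice was 0.99 (adjusted p = 0.11), so no call changed. WT mouse 5 on the LFD had 43.0 CPM of Foxa3, against 67.0 to 74.5 CPM in the others, and without it the log2 fold change was -0.81 ± 0.18 (SE, adjusted p = 0.0069, edgeR). WT mouse 5 on the HFD had 35.0 CPM of Nr5a2, against 49.1 to 53.7 CPM in the others, and without it the diet effect averaged over genotypes was 0.28 ± 0.05 (SE, adjusted p = 0.0035, edgeR).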

How the results depend on the processing

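On the LFD, 3 of 9 genes were called in the fit as reported, 4 with voom and the pools (Foxa1 added), and 2 to 3 when each mouse was left out in turn. On the HFD the count was 2 as reported, 1 (Cebpa) with no filter on low counts, 1 with only the groups compared, and 1 to 3 without each mouse. Averaged over diets it was 3, 4 with voom and the pools (Foxa1 added), and 3 without each mouse. For diet in WT it was 0 as reported and 1 (Nr5a2) with voom, with or without the pools. For diet in Adn-Lpin1-/- mice it was 0 as reported and 2 (Nr5a2 and Foxa2) with voom and the pools. For diet averaged over genotypes it was 1 as reported, 3 with voom and the pools (Cebpa and Cebpb added), 0 with no filter, and 0 to 1 without each mouse. Voom with pools counts the RNA of the same mice a second time. Foxa3 on the HFD was called with DESeq2 (adjusted p = 0.039), with voom (0.033) and with the GC trend removed (0.045), and Nr5a2 on the HFD was not called with the GC trend removed (0.053).

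With a replicate block for mouse number, 3 genes were called on the LFD, 1 (Cebpa) on the HFD, where Nr5a2 was lost (adjusted p = 0.070), 3 averaged over diets, and 0 for diet averaged over genotypes, where Nr5a2 was lost (0.074). The block rests on numbers that do not pair the mice, and it moved the count of all genes called by over 1.5 times only for diet in WT (90 against 144).

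Of 1737 log2 fold changes of the 9 genes under alternatives, 100 changed sign, in 18 of 63 values, and none of these was called in either fit (lowest adjusted p = 0.65). Of 72 group levels under other scalings, 1 moved by more than 1 SD, Cebpa in WT mice on the LFD (373 CPM on raw totals). With 5 mice a group, Onecut1 and Foxa2 would need changes far beyond those of Cebpa to be called. Causes of these shifts were not tested. Over all genes, voom with the pools called 4177 against 1877 on the LFD, 4763 against 2434 on the HFD, 1927 against 144 for diet in WT, 2327 against 321 for diet in Adn-Lpin1-/- mice, 3637 against 948 for diet averaged and 190 against 0 for the difference between diets. Voom without pools called 670 for diet in WT and 1539 for diet averaged, DESeq2 400 and 577 for diet in WT and Adn-Lpin1-/- mice, and fits of only the groups compared 72 and 161. Leaving out WT mouse 3 left 1210 genes on the LFD, and leaving out Adn-Lpin1-/- mouse 2 left 1475 on the HFD. For diet in WT, leaving out 1 mouse gave 55 (WT mouse 3 of the HFD) to 289 (WT mouse 5 of the LFD), and 59 to 95 without WT mice 1, 2 or 4 of either diet. For diet in Adn-Lpin1-/- mice it gave 123 (mouse 3 of the LFD) to 378, and 159 to 211 without mice 2 or 4 of the LFD or 1, 2 or 5 of the HFD. Voom with the pools also called 20 of 30 hepatocyte products on the HFD against 14, and on the LFD 17 lower against 7, with 2 higher. Of the other liver-enriched factors it called 13 lower on the LFD and 8 on the HFD, against 4 and 3, and 7 fell on the LFD with the GC trend removed. Cyp7a1 on the LFD was not called with the GC trend removed, which left 0 of 7 LRH-1 targets.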

Other observations

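The 4 pools, each made of the RNA of the 5 mice of a group, gave 36 further values for the 9 genes, of which 35 lay within the range of the 5 mice. The exception was Cebpb in Adn-Lpin1-/- mice on the LFD, at 21.1 CPM in the pool against 20.2 CPM in the highest mouse. Cebpa stood at 385 CPM in the WT pool and 325 CPM in the Adn-Lpin1-/- pool on the LFD, and at 356 and 285 CPM on the HFD. Nr5a2 stood at 41.4 and 32.9 CPM on the LFD and at 47.2 and 37.8 CPM on the HFD, and Foxa3 at 63.9 and 40.4 CPM and at 63.4 and 39.6 CPM. The pools hold the same RNA as the mice and are no further replicates.

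Averaged over both diets, more genes of the fixed lists passed the test than on either diet alone. Hepatocyte products fell in 18 of 30 and rose in none, and other liver-enriched factors fell in 9 of 33 and rose in none, against 15.8% of all genes lower. Among the factors these included Xbp1 (log2 -0.49 ± 0.15, adjusted p = 0.019, edgeR), a factor of the secretory pathway, and Nr1h4 (log2 -0.24 ± 0.08, adjusted p = 0.026), the bile acid receptor FXR. Of 11 fetal liver and biliary genes tested, 3 were called higher, against 17.1% of all genes, and 1 lower. Onecut2 fell (log2 -0.53 ± 0.09, adjusted p = 2.1e-04). Of the 5 cholangiocyte markers among them, Krt19 (log2 0.84 ± 0.30, adjusted p = 0.038) and Spp1 (log2 0.71 ± 0.23, adjusted p = 0.023) rose, whereas Krt7 (log2 0.64, adjusted p = 0.070), Epcam (log2 0.43, adjusted p = 0.17) and Sox9 (log2 -0.17, adjusted p = 0.49) were not called. The third gene called higher was Sox4, which exceeded 1 CPM in no WT mouse and so entered the test through Adn-Lpin1-/- mice alone. By diet, averaged over genotypes, Afp, the fetal albumin relative, was lower on the HFD (log2 -0.46 ± 0.12, adjusted p = 0.020, edgeR).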
